A study of Mus musculus with 8 samples.

Results

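Heat shock proteins and the DNAJ co-chaperones were examined in the neural retina of Mfp2-/- and control mice. Members were taken by gene symbol: every Hspa, Hspb, Hspd, Hspe, Hsph or Hsp90a gene and every Dnaja, Dnajb or Dnajc gene that was followed by a number or letter of the family, without the endoplasmic reticulum stress genes Hspa5 and Dnajb9, and with at least 10 counts summed over the 8 libraries. The rule matched 77 symbols, of which 15 had fewer than 10 counts, so 62 of the 43472 symbols counted were members. At the edge of the minimum, Hspb2 and Hspb3 were kept with 15 counts each, and Hspa1l was left out with 5.

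The study asked what the loss of multifunctional protein 2 (MFP2, encoded by Hsd17b4), an enzyme of peroxisomal β-oxidation, does to the retina. Mfp2-/- mice carried a constitutive knockout in every cell and came from heterozygous breeding pairs on the C57BL/6J background. The Mfp2-/- group held 4 mice, and the control group held 4 mice, of which 3 were Mfp2+/+ and 1, control replicate 2, was Mfp2+/-. All were 3 weeks old (postnatal day 21). Mice of both groups were anesthetized with medetomidine and ketamine, and both retinas of a mouse were pooled into 1 library, so p-values measure the spread between mice. The libraries were 3′ end libraries (QuantSeq), in which a transcript is counted near its end whatever its length.

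HSP70 proteins bind unfolded stretches of other proteins and release them in a cycle driven by ATP. DNAJ proteins (also HSP40 or J-proteins) deliver the client and start ATP hydrolysis, exchange factors such as HSP110 and BAG proteins let ADP go, and HSP90 takes over many clients at a late step of folding, while small heat shock proteins hold unfolded proteins without using ATP. Under heat or proteotoxic stress, heat shock factor 1 binds heat shock elements and induces a subset of these genes. Photoreceptors make and fold large amounts of protein for their outer segments and synapses, and in mice the synaptic vesicle J-protein DNAJC5 is required for their survival.

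The libraries held 1895485 to 2826553 counts in genes in Mfp2-/- retinas and 2340974 to 3226187 in control retinas. Hsd17b4 had 1, 0, 1 and 0 counts in the Mfp2-/- libraries and 47, 20, 78 and 37 in the control libraries, as the genotype labels state. Reads that fell outside annotated genes made up 27.5%, 10.8%, 15.7% and 28.0% of reads in Mfp2-/- replicates 1 to 4, and 27.1%, 28.3%, 22.6% and 29.9% in control replicates 1 to 4, so Mfp2-/- replicates 2 and 3 stood apart. The 16 rod markers summed to 1739 to 2561 counts per 1000000 counts in tested genes (CPM) in Mfp2-/- retinas and to 49531 to 60682 CPM in control retinas, and all 16 were lower in Mfp2-/- retinas. Markers of microglia summed to 429 to 568 CPM in Mfp2-/- retinas and to 80.0 to 100.3 CPM in control retinas. The part of these shifts between cell types in the results on the members was not tested. In such bulk samples, fewer cells of a type and less RNA per cell cannot be told apart. On sections of retinas of the same age, the paper found a normal number of photoreceptor nuclei, and more apoptotic ones.

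Of the 62 members, 55 passed the filter on low counts and were tested with edgeR's quasi-likelihood test across 12516 genes. 13 members were called at an adjusted p under 0.05 in either direction, beside 27.0% of all genes tested. 9 members fell (16.4%, against 13.2% of all genes tested) and 4 rose (7.27%, against 13.8%), and 42 were not called. At 2-fold or more, 7 members fell (12.7%, against 6.91% of all genes) and 1 rose (1.82%, against 5.59%). Mfp2-/- and control libraries did not overlap for 9 lower members, beside 15.8% of all genes, and for 4 higher members, beside 15.1%. Without a fold limit the share that fell was near the background, and at 2-fold or more it was above it. The share that rose was below the background either way, and none of these shares was tested. Of all called genes 51.2% were higher, but this share was 64.2% when scaled by upper quartiles and 65.2% when scaled by library totals alone, settings that move the median over all genes to 0.12 on the log2 scale. Without control replicate 2, the Mfp2+/- mouse, 7 of 56 members tested were called, all of them lower. In that fit 19.3% of 12820 genes were called, against 27.0% with all libraries, and 48.6% of the called genes were higher. The median log2 fold change of the tested members was -0.11, against -0.0039 over all genes, and the members ranged from -2.60 to 1.08. The CPM summed over all 62 members was 5351 to 5683 in Mfp2-/- retinas and 5852 to 6437 in control retinas.

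**Figure D1:**
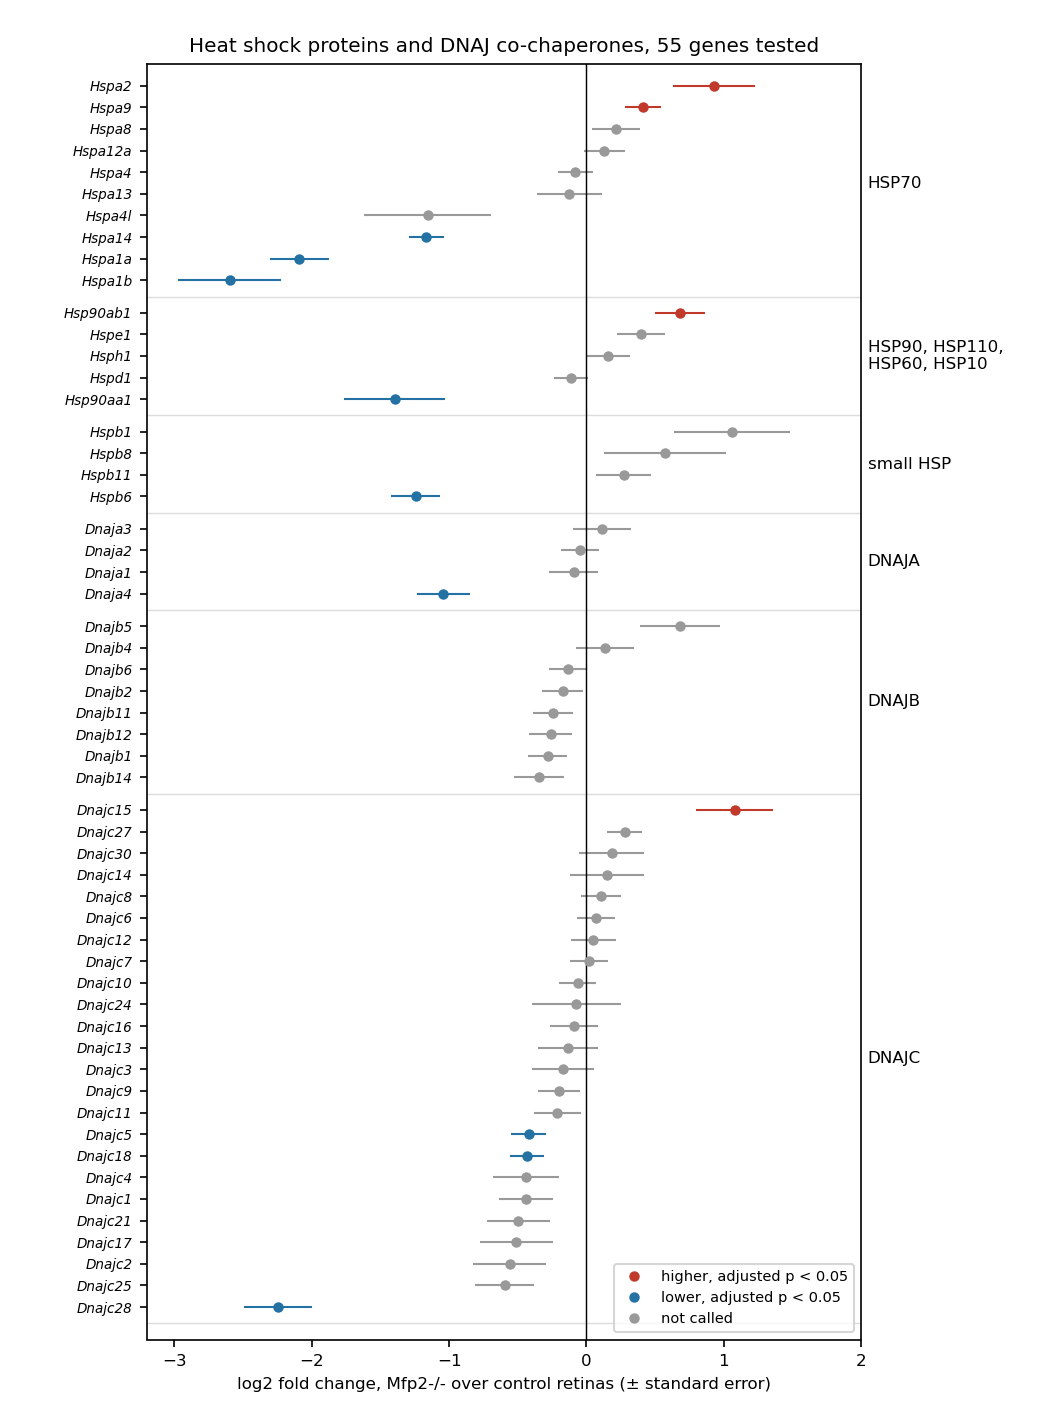
Log2 fold change, Mfp2-/- over control, of the 55 tested members with its standard error, grouped by family; colour marks the called members. The 9 called decreases lie between -2.60 and -0.42 and the 4 called increases between 0.41 and 1.08, and members of the same family lie on both sides of 0.

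The lowest member relative to control was a stress-inducible cytosolic HSP70. Hspa1a and Hspa1b encode nearly the same HSP70 protein, lie next to each other on chromosome 17 (GRCm38, 34969190 to 34972156 and 34956436 to 34959238, both on the minus strand), and are the classical targets of heat shock factor 1. Hspa1b had 5.31, 3.05, 3.70 and 0.735 CPM in Mfp2-/- replicates 1 to 4, and 17.5, 21.3, 16.4 and 24.0 CPM in control replicates 1 to 4. Its groups did not overlap, and it fell 6.06-fold (log2 fold change -2.60 ± 0.38 SE, adjusted p = 0.000589). The size of this fall rests on few counts: 15, 6, 11 and 2 in Mfp2-/- and 48, 47, 51 and 69 in control libraries. Hspa1a had 6.02, 13.2, 7.73 and 8.83 CPM in Mfp2-/- retinas, and 37.1, 39.8, 35.8 and 36.9 CPM in control retinas. It fell 4.26-fold (log2 fold change -2.09 ± 0.21 SE, adjusted p = 4.93e-05), and the highest Mfp2-/- library lay below every control library. The last 500 bases of the transcripts of both genes shared none of their 451 50-base words with any other annotated gene.

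The promoter windows of both genes run from 250 bases before the start of the transcript to 50 after it (RefSeq, GRCm38.p6, chr17:34972107-34972406 and chr17:34959189-34959488, minus strand). The windows are printed because both genes fell and because both hold letters that match a heat shock element. Capitals mark a heat shock element of 2 units, searched on both strands as GAANNTTC or TTCNNGAA.
Hspa1a: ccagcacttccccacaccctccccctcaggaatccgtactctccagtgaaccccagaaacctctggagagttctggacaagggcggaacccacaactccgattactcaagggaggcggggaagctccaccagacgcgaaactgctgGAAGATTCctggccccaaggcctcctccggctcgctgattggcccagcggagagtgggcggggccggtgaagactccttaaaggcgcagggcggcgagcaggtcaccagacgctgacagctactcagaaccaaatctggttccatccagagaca
Hspa1b: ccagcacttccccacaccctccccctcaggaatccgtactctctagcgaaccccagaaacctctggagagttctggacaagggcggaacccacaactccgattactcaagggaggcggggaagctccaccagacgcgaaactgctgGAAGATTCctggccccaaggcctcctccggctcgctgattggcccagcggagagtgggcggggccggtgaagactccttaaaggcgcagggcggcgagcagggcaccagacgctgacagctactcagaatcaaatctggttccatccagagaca
The windows were identical at 296 of 300 bases, and in both the element lay 104 to 97 bases before the start. A window was in the table for 48 of the 62 members, and 15 of these 48 (31.2%) held an element of 2 units, against 4587 of 27025 genes (17.0%). An element of 3 units next to each other (GAANNTTCNNGAA or TTCNNGAANNTTC) was in 4 of the 48 members (8.33%), against 0.662% of all genes. These were Dnajb6, Hspd1, Hspe1 and Hsph1, and none of them was called. Hspd1 and Hspe1 hold the same stretch read from opposite strands, and the Hspa1a and Hspa1b windows are near copies. Each of these pairs is therefore not independent in the shares given here. A match is a run of letters and does not show that a factor binds.

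The other HSP70 genes did not all share the fall of Hspa1a and Hspa1b. Hspa8, the constitutive HSC70 that also uncoats clathrin vesicles, had 426, 558, 444 and 488 CPM in Mfp2-/- retinas, and 515, 421, 417 and 295 CPM in control retinas. The groups overlapped (log2 fold change 0.22 ± 0.18 SE, adjusted p = 0.383), and 62.1% of the 50-base words at its transcript ends also occur in processed copies of the gene, so its count is uncertain. Within each library, Hspa1a counts were 0.0141, 0.0237, 0.0174 and 0.0181 of the Hspa8 counts in Mfp2-/- retinas, and 0.0721, 0.0945, 0.0858 and 0.125 in control retinas. Hspa4, an HSP110-type exchange factor, and Hspa12a, a divergent HSP70, gave log2 fold changes of -0.08 and 0.13 and were not called.

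Hspa14, an HSP70 that works at the ribosome together with the J-protein encoded by Dnajc2, was among the steadiest decreases. Its levels were 32.9, 35.6, 29.6 and 33.1 CPM in Mfp2-/- retinas and 68.8, 81.4, 75.8 and 67.9 CPM in control retinas, a gap wider than either group's range. It fell 2.24-fold (log2 fold change -1.17 ± 0.13 SE, adjusted p = 7.33e-05). Dnajc2, its partner, averaged 36.5 ± 15.5 CPM in Mfp2-/- and 54.0 ± 6.87 CPM in control retinas (SD, n = 4 each) and was not called by edgeR (log2 fold change -0.56, adjusted p = 0.141).

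Hspa4l, an HSP110-type exchange factor induced by heat, was among the most abundant HSP70 genes and varied within both groups. It had 317, 61.5, 138 and 379.9 CPM in Mfp2-/- retinas, and 576, 551, 304 and 570.2 CPM in control retinas. The libraries lowest in Hspa4l in their group were Mfp2-/- replicates 2 and 3 and control replicate 3, which are also the libraries with the lowest share of reads outside genes. The groups overlapped, and edgeR did not call the gene (log2 fold change -1.15 ± 0.46 SE, adjusted p = 0.0873). Without Mfp2-/- replicates 2 and 3, a choice made after seeing the data, its log2 fold change was -0.52. The part that the share of reads outside genes has in these values was not tested.

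Among the increases of the HSP70 family were Hspa2, which is best known from male germ cells, and Hspa9, the mitochondrial HSP70 (mortalin). Hspa2 had 6.02, 8.13, 10.8 and 12.1 CPM in Mfp2-/- retinas and 5.10, 5.43, 5.48 and 3.48 CPM in control retinas. It rose 1.90-fold (log2 fold change 0.93 ± 0.30 SE, adjusted p = 0.0410) with groups that did not overlap. Hspa9 had 111, 137, 142 and 138 CPM in Mfp2-/- retinas and 94.3, 90.0, 100.3 and 111 CPM in control retinas. It rose 1.33-fold (log2 fold change 0.41 ± 0.13 SE, adjusted p = 0.0385), although the lowest Mfp2-/- library and the highest control library overlapped. Both calls were lost when single libraries were left out: Hspa2 when any 1 control mouse, or Mfp2-/- mouse 3 or 4, was omitted (adjusted p up to 0.109), and Hspa9 when control mouse 1, 2 or 3, or Mfp2-/- mouse 3 or 4, was omitted (adjusted p up to 0.120).

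The cytosolic HSP90 genes moved in opposite directions. Hsp90aa1 (chromosome 12, 110690605 to 110702728, minus strand) encodes the inducible form and Hsp90ab1 (chromosome 17, 45567775 to 45573271, minus strand) the constitutive one. Hsp90aa1 had 379, 105, 214 and 436 CPM in Mfp2-/- retinas, and 958, 773, 571 and 692 CPM in control retinas. All Mfp2-/- libraries lay below all control libraries, with a 2.63-fold fall (log2 fold change -1.40 ± 0.37 SE, adjusted p = 0.0174). Hsp90ab1, the most abundant member, had 1061, 1733, 1323 and 1064 CPM in Mfp2-/- retinas, and 783, 761, 962 and 717 CPM in control retinas. It rose 1.61-fold (log2 fold change 0.68 ± 0.18 SE, adjusted p = 0.0178), again without overlap.

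Hsp90aa1 counts were 0.358, 0.0607, 0.162 and 0.410 of the Hsp90ab1 counts in Mfp2-/- replicates 1 to 4, and 1.22, 1.02, 0.593 and 0.965 in control replicates 1 to 4. The inducible form was thus the smaller in all Mfp2-/- libraries, and about level with the constitutive form in most control libraries. In each group Hsp90aa1 was lowest, and Hsp90ab1 highest, in the libraries with the fewest reads outside genes: Mfp2-/- replicates 2 and 3, and control replicate 3. Without Mfp2-/- replicates 2 and 3 the log2 fold changes were -0.88 (adjusted p = 0.00268) for Hsp90aa1 and 0.39 (adjusted p = 0.0512) for Hsp90ab1. Leaving out only control mouse 1 or only Mfp2-/- mouse 3 ended the Hsp90aa1 call (adjusted p up to 0.0566). Leaving out control mouse 2 or 4 ended the Hsp90ab1 call (adjusted p up to 0.0585). The part of the reads outside genes in this difference was not tested. Of the 50-base words at the transcript ends, 40.9% of those of Hsp90aa1 and 4.11% of those of Hsp90ab1 also occur in pseudogenes. The Hsp90aa1 count is therefore uncertain. Reads without a unique alignment made up 21.1%, 26.2%, 23.8% and 20.8% of reads in Mfp2-/- replicates 1 to 4. In control replicates 1 to 4 they made up 20.9%, 20.6%, 21.3% and 19.9%. The part of such reads in the HSP90 values was not tested.

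**Figure D2:**
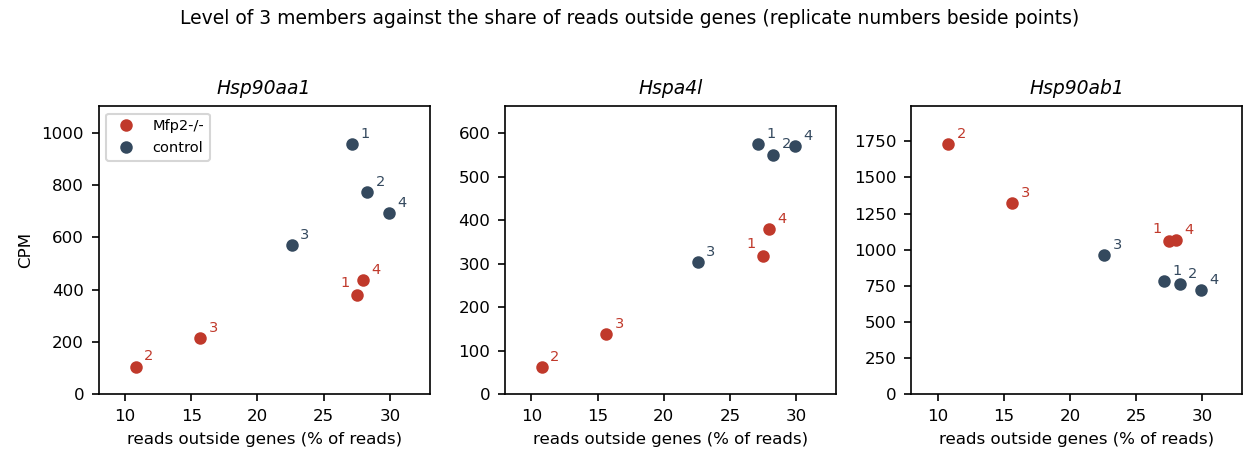
Level of Hsp90aa1, Hsp90ab1 and Hspa4l in each library in CPM against the share of reads outside annotated genes in percent, for the 4 Mfp2-/- and 4 control libraries. Mfp2-/- replicates 2 and 3 (10.8% and 15.7%) and control replicate 3 (22.6%) hold the lowest values of Hsp90aa1 and Hspa4l and the highest of Hsp90ab1 in their group.

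The chaperonins and HSP110 were not called with TMM factors. Hsph1 encodes an HSP110 exchange factor, and Hspd1 and Hspe1 the mitochondrial HSP60 and its HSP10 lid. Hsph1 had 51.7, 49.8, 41.7 and 52.6 CPM in Mfp2-/- retinas and 44.4, 49.8, 48.4 and 33.1 CPM in control retinas (log2 fold change 0.16 ± 0.16 SE, adjusted p = 0.485). Hspd1 had 47.4, 54.4, 48.7 and 48.9 CPM in Mfp2-/- retinas, and 50.2, 57.9, 57.1 and 50.2 CPM in control retinas (log2 fold change -0.11 ± 0.12 SE, adjusted p = 0.518). Hspe1 had 47.1, 78.8, 49.1 and 59.6 CPM in Mfp2-/- retinas and 45.5, 44.3, 46.8 and 40.4 CPM in control retinas. Its groups did not overlap, yet edgeR did not call it (log2 fold change 0.40 ± 0.17 SE, adjusted p = 0.111), except when scaled by library totals alone (0.52, adjusted p = 0.0451). Hspd1 and Hspe1 start beside each other on opposite strands. The Hspe1 window, shown because it holds 2 overlapping 3-unit elements, is printed with them in capitals (RefSeq, GRCm38.p6, chr1:55087898-55088197, plus strand).
Hspe1: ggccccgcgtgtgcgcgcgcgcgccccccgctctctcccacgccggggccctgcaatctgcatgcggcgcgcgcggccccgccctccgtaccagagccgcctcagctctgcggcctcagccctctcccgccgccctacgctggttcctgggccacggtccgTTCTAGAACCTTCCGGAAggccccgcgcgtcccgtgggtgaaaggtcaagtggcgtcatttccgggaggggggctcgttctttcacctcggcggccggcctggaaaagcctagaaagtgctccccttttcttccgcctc
The elements lay 89 to 72 bases before the start of Hspe1. The same stretch lay 144 to 127 bases before an annotated start of Hspd1. The window of the other Hspd1 start (chr1:55088194-55088493, minus strand) held no element. Hspd1 and Hspe1 share exon bases on opposite strands. Of the 50-base words at their transcript ends, 31.8% for Hspd1 and 26.6% for Hspe1 also occur in other genes, so both counts are uncertain.

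**Figure D3:**
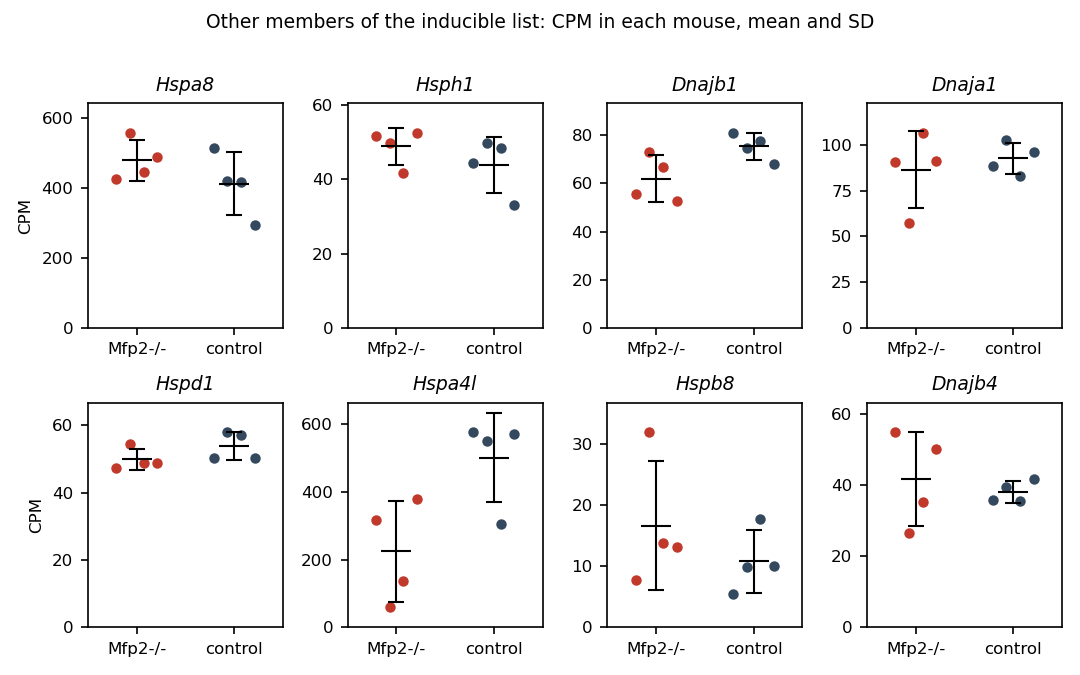
Level in CPM of 8 further members of the inducible list in each Mfp2-/- (left) and control (right) library, with the group means and SDs. In every panel libraries of both groups overlap, with the widest spread in Hspa4l (61.5 to 379.9 CPM in Mfp2-/- and 304 to 576 CPM in control retinas).

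The inducible list as a whole, 13 chaperone genes that rise when cells are heated, held 3 members that fell (Hspa1a, Hspa1b and Hsp90aa1), none that rose and 10 that were not called, with a median log2 fold change of -0.09. Its lower calls were 3 of 13 tested, beside the 13.2% of all genes given above. Dnajb1, the main cytosolic J-protein of the heat shock response, had 55.6, 73.2, 66.9 and 52.6 CPM in Mfp2-/- retinas and 81.2, 74.6, 77.7 and 67.9 CPM in control retinas, with overlap (log2 fold change -0.28 ± 0.14 SE, adjusted p = 0.159). Dnaja1 had 90.6, 57.4, 107 and 91.6 CPM in Mfp2-/- retinas and 88.8, 103, 82.9 and 96.5 CPM in control retinas (log2 fold change -0.09 ± 0.18 SE, adjusted p = 0.733). Of the 50-base words at its transcript ends, 42.1% also occur in other genes. Among these is Smu1, which shares exon bases with Dnaja1 on the other strand, so the Dnaja1 count is uncertain. Dnajb4 and Hspb8 gave log2 fold changes of 0.14 and 0.58 and were not called. Without Mfp2-/- replicates 2 and 3, Dnajb1 was called lower (log2 fold change -0.48, adjusted p = 0.0209) and Dnajb4 higher (0.46, adjusted p = 0.0420).

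Small heat shock proteins divided. Hspb6 (HSP20), known for muscle and brain, had 80.7, 120.4, 86.1 and 81.3 CPM in Mfp2-/- retinas, and 233, 223, 248 and 166 CPM in control retinas. It fell 2.37-fold (log2 fold change -1.24 ± 0.18 SE, adjusted p = 0.000551), and the groups did not overlap. Hspb1 (HSP25 in the mouse), which binds unfolded proteins and actin, had 26.9, 76.2, 25.5 and 17.7 CPM in Mfp2-/- retinas, and 15.6, 20.4, 21.6 and 11.1 CPM in control retinas. The value of 76.2 CPM in Mfp2-/- replicate 2 stood far above the others, the groups overlapped, and the gene was not called (log2 fold change 1.06 ± 0.42 SE, adjusted p = 0.0877). Without Mfp2-/- replicate 2 its log2 fold change was 0.45, and 39.2% of its end words occur in 2 pseudogenes.

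The counts of Hspb6 were 3, 1.58, 3.37 and 4.60 times those of Hspb1 in Mfp2-/- retinas, and 14.9, 11.0, 11.5 and 14.9 times in control retinas. Alpha crystallins are related small heat shock proteins and lens proteins, and were called higher: Cryab averaged 803 ± 585 CPM in Mfp2-/- and 155 ± 65.4 CPM in control retinas (SD, n = 4 each, log2 fold change 2.38, adjusted p = 0.00674), and Cryaa had a log2 fold change of 2.12 (adjusted p = 0.0459). The 17 lens markers, a list without these alpha crystallins, summed to 3498, 8127, 5418 and 499 CPM in Mfp2-/- replicates 1 to 4, and to 2084, 1126, 909 and 433 CPM in control replicates 1 to 4, none of them at 0. Replicate 2 of the Mfp2-/- group was thus highest in Hspb1, Hspb6 and lens markers. The part of lens RNA in these values was not tested. Hspb11, which encodes the intraflagellar transport subunit IFT25, had 19.5, 14.7, 18.8 and 16.2 CPM in Mfp2-/- retinas and 12.0, 18.5, 14.8 and 12.5 CPM in control retinas (log2 fold change 0.27 ± 0.20 SE, adjusted p = 0.338).

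The promoter window of Hspb6 that held a heat shock element, with the element in capitals, is shown beside that of Dnaja4, the DNAJA gene that fell (RefSeq, GRCm38.p6, chr7:30553051-30553350 and chr9:54699309-54699608, plus strand).
Hspb6: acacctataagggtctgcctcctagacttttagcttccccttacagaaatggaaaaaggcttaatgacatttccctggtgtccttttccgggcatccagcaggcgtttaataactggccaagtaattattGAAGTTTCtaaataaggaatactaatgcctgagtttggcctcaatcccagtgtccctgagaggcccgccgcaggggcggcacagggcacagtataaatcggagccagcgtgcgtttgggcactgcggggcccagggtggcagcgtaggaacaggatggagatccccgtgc
Dnaja4: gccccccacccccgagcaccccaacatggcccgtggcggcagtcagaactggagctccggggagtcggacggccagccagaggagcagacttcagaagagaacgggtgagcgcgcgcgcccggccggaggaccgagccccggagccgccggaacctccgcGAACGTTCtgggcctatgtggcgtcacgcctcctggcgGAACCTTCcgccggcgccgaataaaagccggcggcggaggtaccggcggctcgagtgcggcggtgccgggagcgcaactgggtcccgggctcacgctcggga
The element of Hspb6 lay 120 to 113 bases before the start, and those of Dnaja4 lay 90 to 83 and 52 to 45 bases before it. Both genes also have another annotated start, whose window held none. Among the other members that fell 2-fold, the windows of Dnajc28 and Hspa14 held no element of this spelling, and Hsp90aa1 had no window. The other members with a 2-unit element were Dnaja1, Dnajb4, Dnajb6, Dnajc10, Dnajc27, Hspb1, Hspb3, Hspb8, Hspd1, Hspe1 and Hsph1. None of them was called, except under some of the alternatives, and Hspb3 was not tested. A link between element and fall was not tested.

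Dnaja4, a cytosolic J-protein of the HSP40 type, had 14.9, 15.2, 17.1 and 19.5 CPM in Mfp2-/- retinas, and 34.9, 24.4, 41.3 and 36.6 CPM in control retinas. It fell 2.06-fold (log2 fold change -1.04 ± 0.19 SE, adjusted p = 0.00255) with no overlap. It shares exon bases with Wdr61 on the other strand, and no source used here says whether reads were counted by strand, so reads of both genes may be mixed. Wdr61 itself averaged 66.4 ± 7.91 CPM in Mfp2-/- and 63.9 ± 11.6 CPM in control retinas (SD, n = 4 each). The other DNAJA genes stayed within the spread: Dnaja2 had 142, 138, 157 and 126 CPM in Mfp2-/- and 138, 121, 168 and 153 CPM in control retinas (log2 fold change -0.04 ± 0.14 SE). None of the 8 DNAJB genes tested was called with all libraries, although Dnajb1, Dnajb4 and Dnajb12 (log2 fold change -0.49, adjusted p = 0.0319) were called without Mfp2-/- replicates 2 and 3. Their log2 fold changes with all libraries lay between -0.34 and 0.68, including Dnajb14 at 171, 104, 134 and 173 CPM in Mfp2-/- and 154, 208, 205 and 172 CPM in control retinas (adjusted p = 0.187) and the anti-aggregation factor Dnajb6 at 89.2, 96.0, 95.8 and 86.4 CPM in Mfp2-/- and 116, 81.9, 109 and 95.1 CPM in control retinas (adjusted p = 0.497).

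The DNAJC group held 24 tested genes, of which 3 fell (12.5%, against 13.2% of all genes), 1 rose (4.17%, against 13.8%) and 20 were not called. Dnajc28 had 9.55, 3.56, 6.72 and 9.56 CPM in Mfp2-/- retinas, and 30.9, 35.7, 40.0 and 36.2 CPM in control retinas. It fell 4.73-fold (log2 fold change -2.24 ± 0.25 SE, adjusted p = 7.88e-05), the deepest decrease of a J-protein, with every Mfp2-/- library below every control library. Its counts were 27, 7, 20 and 26 in Mfp2-/- and 85, 79, 124 and 104 in control libraries. Dnajc5, the cysteine string protein of synaptic vesicles, had 363, 395, 391 and 341 CPM in Mfp2-/- retinas, and 433, 502, 543 and 517 CPM in control retinas. It fell 1.34-fold without overlap (log2 fold change -0.42 ± 0.12 SE, adjusted p = 0.0292).

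Dnajc15, a J-protein of the mitochondrial inner membrane, was the largest increase among the members: it had 14.5, 26.4, 10.8 and 16.5 CPM in Mfp2-/- retinas and 8.01, 6.79, 8.06 and 8.71 CPM in control retinas. It rose 2.11-fold (log2 fold change 1.08 ± 0.28 SE, adjusted p = 0.0173). Dnajc18, an endoplasmic reticulum J-protein, fell (log2 fold change -0.43 ± 0.12 SE, adjusted p = 0.0259). Dnajc8, a J-protein of the spliceosome, had 210.2, 285, 288 and 207 CPM in Mfp2-/- and 232, 233, 236 and 219 CPM in control retinas, and was not called (log2 fold change 0.11 ± 0.15 SE). The calls of Dnajc5 and Dnajc18 were lost when scaled by upper quartiles or by library totals alone, with no filter on low counts (adjusted p = 0.0600 and 0.0575), and without 6 and 5 of the 8 libraries in turn (adjusted p up to 0.1004 and 0.0773). The Dnajc15 call was lost without control replicate 2 (adjusted p = 0.0518).

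By place in the cell, of 11 endoplasmic reticulum members tested 1 fell and none rose, of 9 mitochondrial members tested 2 rose (Hspa9 and Dnajc15) and 1 fell (Dnajc28), of 3 vesicle and synapse members 1 fell (Dnajc5), and none of 4 splicing and nuclear members was called. Over all genes tested, 13.2% fell and 13.8% rose, and no share of lists this small was tested. The medians of these lists were -0.25, 0.11, -0.13 and -0.35 on the log2 scale, beside -0.0039 over all genes. The 7 members that were not tested for low counts were Dnajb3, Dnajc19, Dnajc19-ps, Hspa12b, Hspa9-ps1, Hspb2 and Hspb3, with 0 to 15 counts in each library.

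**Figure D4:**
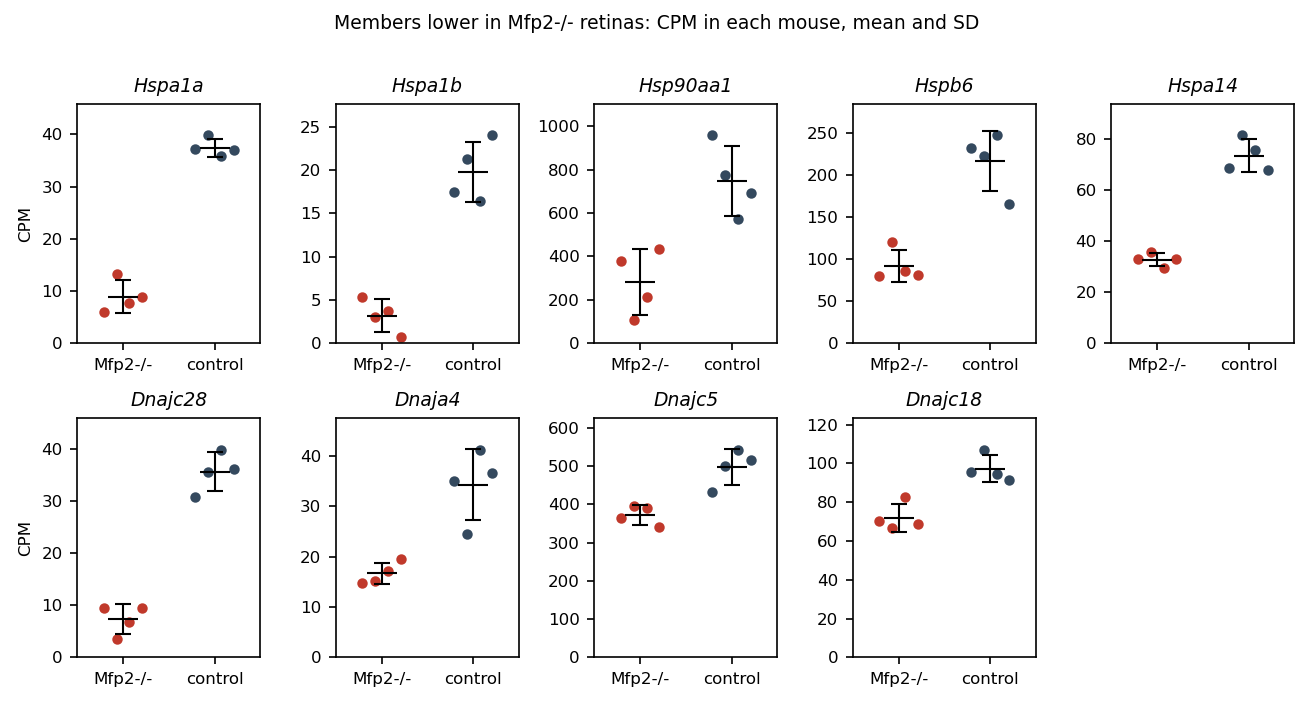
Level in CPM of the members called lower in each Mfp2-/- (left) and control (right) library, with group means and SDs. In every panel the Mfp2-/- libraries lie below the control libraries, from Hspa1b (3.20 against 19.8 CPM on average) to Dnajc5 (372 against 499 CPM).

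**Figure D5:**
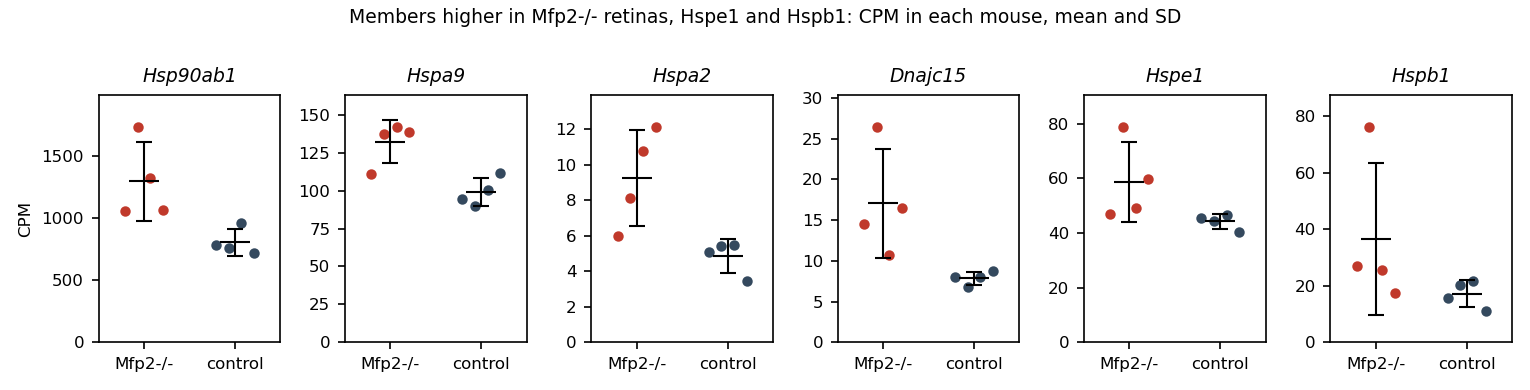
Level in CPM of the members called higher and of Hspb1 and Hspe1, which were not called, in each Mfp2-/- (left) and control (right) library, with group means and SDs. Hsp90ab1 averages 1295 CPM in Mfp2-/- and 806 CPM in control retinas, and Hspa9 and Hspb1 have libraries of both groups that overlap.

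Partners of the members were counted from lists of genes that are not members. Their calls stand beside 13.2% of all genes lower and 13.8% higher. Of Hsf1, Hsf2 and Hsbp1 (a protein that binds heat shock factor 1), the 3 genes of their list that were tested, 1 was called: Hsf2 fell (31.0 ± 7.51 CPM in Mfp2-/- and 47.9 ± 3.05 CPM in control retinas, SD, n = 4 each, log2 fold change -0.62 ± 0.18 SE, adjusted p = 0.0264). Hsf1, the main activator of the heat shock response, averaged 16.0 CPM in Mfp2-/- and 22.9 CPM in control retinas. Its Mfp2-/- libraries all lay below the control libraries, yet edgeR did not call it (log2 fold change -0.51, adjusted p = 0.0959). Of 12 HSP70 exchange factors and partners, 2 rose and 1 fell: Bag2 and Bag3 (the partner of HSPB8) rose by 1.32 and 1.43 on the log2 scale (adjusted p = 0.00479 and 0.0105), and Grpel2, the mitochondrial exchange factor, fell (-0.75, adjusted p = 0.0112).

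Of 23 HSP90 co-chaperones tested, 2 fell, none rose and the rest were not called. Aipl1, the photoreceptor co-chaperone that folds cone and rod phosphodiesterase, averaged 163 ± 13.5 CPM in Mfp2-/- and 1094 ± 199.8 CPM in control retinas (SD, n = 4 each, log2 fold change -2.75 ± 0.16 SE), and the other was Unc45a (-0.82). Without Aipl1, a choice made after seeing the data, the levels of the listed co-chaperones summed to 1334 to 1361 CPM in Mfp2-/- retinas and to 1291 to 1556 CPM in control retinas, which overlapped. Of 16 genes of the chaperonin TRiC, prefoldin and their phosducin-like partners, 2 fell (Vbp1, -1.12, and Cct4, -0.48) and none rose, and of 6 organelle HSP90, HSP110 and disaggregase genes none was called. Of 8 immediate early genes, 3 rose (Atf3, Junb and Fosb).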

How the data were processed

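Neural retina RNA of 4 Mfp2-/- and 4 control mice had been sequenced as 3′ end libraries with single 50-base reads. The authors deposited raw counts, 1 value for each gene symbol and library, and these were used. The submitters' processing notes list FastQC 0.11.7, HISAT2, SAMtools 1.5, HTSeq 2.7.14 and mm10. No version of HISAT2, no annotation release and no strand setting is given in the sources used here. Rows that name no gene, 59.2% to 66.9% of reads, stayed out of library sizes and tests.

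Counts were fitted in R 4.3.3 with edgeR 4.0.16 (quasi-likelihood test, TMM factors, filterByExpr), and p-values were adjusted by Benjamini-Hochberg over 12516 genes. CPM are counts per 1000000, TMM-scaled, log values used a prior count of 2, and SE was derived from the F value. Alternatives were DESeq2 1.42.0, limma 3.58.1 (voom and trend), other factors and filters, a replicate block and leaving out libraries. In simulated data with 200 changed genes among 12516, the edgeR test called 92.5% of 4-fold, 34.3% of 2-fold and 1.52% of 1.5-fold changes. Far fewer genes changed there than were called in these data, so these shares need not carry over. A gene that was not called is not shown to be unchanged. Groups came from the sample labels, with the Mfp2+/- mouse among controls.

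Members and lists were chosen with earlier results of these data known. Values per library are given for members called with a log2 fold change of at least 1, the 2 most abundant of each family and 13 preset members, and other called members by fold change. Hspa2, Hspa9, Hspa4 and Hspa12a are described beyond this rule, and so are further uncalled members named with a fold change, after their values were seen. Genes outside the members were limited to Hsd17b4 and up to 2 a list, and Grpel2, Wdr61, the immediate early genes and summed cell markers were added. Promoter windows are from RefSeq (GRCm38.p6), and coordinates are from GRCm38. Protein motifs were not analysed here.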

Additional observations from a re-analysis of the deposited data

Results flagged for a closer look

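In 46 groups of 4 libraries (23 members named with values, in Mfp2-/- and control retinas), the highest or lowest library was set against the others with Dixon's criterion, which chance meets in about 1 in 20 groups. It was met by 3 groups. Hspb1 had 76.2 CPM in Mfp2-/- replicate 2, against 17.7 to 26.9 CPM in the other Mfp2-/- libraries. Hspb6 had 120 CPM in the same library, against 80.7 to 86.1 CPM in the others. Hspa4l had 304 CPM in control replicate 3, against 551 to 576 CPM in the other control libraries.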

How the results depend on the processing

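Hspa1a, Hspa1b, Dnajc28, Hspb6, Hspa14 and Dnaja4 were called lower in every alternative in which they were tested; Dnajc28 and Hspa1b dropped out of the test at 10 counts in every library. Over 518 values of single genes under an alternative, 455 kept direction and call, 43 lost the call, 10 gained it and 10 turned direction. Many of these values are of genes not called in the main fit, which had no call to lose. The calls of Dnajc5 and Hspa2 were each lost in 10 of 20 alternatives, Dnajc18 in 9 and Hspa9 in 8. Those of Hsp90ab1, Hsp90aa1 and Dnajc15 were lost in 3, 2 and 1 of 20. Leaving out each library in turn gave 7 to 14 called members, 0 to 4 of them higher and 7 to 10 lower, and 2474 to 3524 called genes. Without Mfp2-/- replicates 2 and 3, an alternative chosen after seeing the data, 14 of 56 members tested were called, 2 higher and 12 lower. Dnajb4 was gained as higher and Dnajb1, Dnajb12 and Dnajc25 as lower. In that fit 26.0% of 13044 genes were called, and 51.0% of the called genes were higher. Hspa4l and Hspb1 gained a call with DESeq2 (adjusted p = 0.0306 and 0.0406), without a filter (0.0289 and 0.0457), under the block on replicate numbers (0.0365 and 0.0479) and without Mfp2-/- replicate 4 (0.0347 and 0.0349). Hspe1 gained one with total counts, Dnajc27 with total counts and upper-quartile factors, Dnajc25 without Mfp2-/- replicate 2 or 3, and Dnajc1 and Dnajc21 without Mfp2-/- replicate 4. Of the values that turned direction, with upper-quartile factors Dnaja1 was 0.025, Dnaja2 0.082 and Hspd1 0.013, and with total counts these were 0.032, 0.079 and 0.012. Leaving out single libraries gave -0.21 to 0.057 for Dnaja1, positive without Mfp2-/- replicate 2, and -0.13 to 0.042 for Dnaja2, positive without control replicate 3 or Mfp2-/- replicate 4. Dnajc8 was -0.14 without Mfp2-/- replicates 2 and 3. The cause was not tested.

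The replicate block gave 2845 called genes and 11 called members (3 higher, 8 lower), losing Dnajc18, Dnajc5, Hspa2 and Hspa9. The same-numbered libraries correlated at 0.0798, -0.161, 0.251 and 0.211, and not every library correlated best with its own number, so the numbers were not taken to pair the mice. With 4 mice a group and at most 3226187 counts a library, the calls lost when 1 library was left out were those of Hspa2, Hspa9, Hsp90aa1, Hsp90ab1, Dnajc5, Dnajc15 and Dnajc18.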
